A study of Mus musculus with 12 samples.

Results

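The genes Saa3 and Lcn2 were followed across all 6 groups of an RNA sequencing study of BV2 cells, an immortalised mouse microglial line. These 2 genes, of 43432 gene identifiers listed for each library, were singled out because of their measured levels: they were chosen by the CPM values of these same libraries, with their response to lipopolysaccharide (LPS, a bacterial endotoxin) and to ginger compounds in view. Their levels are therefore given as a description, with no test. There were 12 libraries, 2 in each group. Cells received 6-gingerol at 10 µM and then LPS, 6-gingerol at 30 µM and then LPS, 6-shogaol at 10 µM and then LPS, 6-shogaol at 30 µM and then LPS, LPS without a compound, or no treatment. 6-Gingerol and 6-shogaol are pungent phenols of ginger, and 6-shogaol is the dehydrated form of 6-gingerol, with an α,β-unsaturated ketone in place of its β-hydroxy ketone. In every group cells were plated and, after 24 h, moved to serum-free medium for 4 h or longer. The compound preceded LPS by 1 h, and LPS was used at 100 ng/mL. The time from LPS to harvest, the solvent of the compounds, and whether the libraries of a group came from separate cultures are not given in the sources used here, so the spread between libraries, and every p-value, may be technical.

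Serum amyloid A (SAA) proteins are acute-phase apolipoproteins of high-density lipoprotein that also act on immune cells through receptors such as TLR2 and FPR2; in the mouse, Saa1 and Saa2 are made mainly by the liver during the acute phase, whereas Saa3 is the form made by macrophages, fat cells and other tissues outside the liver. Lcn2 encodes lipocalin 2, a secreted protein that binds bacterial siderophores and so withholds iron from bacteria, and reactive glia and neutrophil granules are known sources of it. Transcription of both genes is known to be driven by NF-kB and C/EBP factors, and that of Lcn2 also by the NF-kB cofactor IkBζ, the product of Nfkbiz.

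Saa3 (ENSMUSG00000040026) lies on chromosome 7 from 46711998 to 46715700 on the minus strand of GRCm38, and Lcn2 (ENSMUSG00000026822) lies on chromosome 2 from 32384633 to 32388252, also on the minus strand (GENCODE M21 annotation, both protein coding). Their promoters, with that of the liver-type relative Saa1, are shown because these genes moved in the same directions with LPS and with 6-shogaol at 30 µM. Each runs 5′ to 3′ along the gene's strand from 250 bases before to 50 bases after the RefSeq transcription start (GRCm38.p6, minus strand): Saa3 at chr7:46715627-46715926, Lcn2 at chr2:32387690-32387989 and Saa1 at chr7:46742931-46743230. Capitals mark matches, on either strand, to the C/EBP motif TTNNGNAA or the loose NF-kB motif GGGNNNNNCC.
Saa3: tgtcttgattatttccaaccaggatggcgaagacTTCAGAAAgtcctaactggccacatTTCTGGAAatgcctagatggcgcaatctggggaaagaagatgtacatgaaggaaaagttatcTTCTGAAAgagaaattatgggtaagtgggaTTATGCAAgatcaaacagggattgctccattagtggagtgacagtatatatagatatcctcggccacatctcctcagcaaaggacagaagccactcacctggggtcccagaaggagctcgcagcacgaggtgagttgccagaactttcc
Lcn2: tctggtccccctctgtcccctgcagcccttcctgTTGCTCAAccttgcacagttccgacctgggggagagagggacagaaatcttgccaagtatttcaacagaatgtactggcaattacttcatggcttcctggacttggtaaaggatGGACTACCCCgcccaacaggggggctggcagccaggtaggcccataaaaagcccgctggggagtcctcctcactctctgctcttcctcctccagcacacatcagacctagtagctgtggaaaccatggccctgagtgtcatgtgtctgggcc
Saa1: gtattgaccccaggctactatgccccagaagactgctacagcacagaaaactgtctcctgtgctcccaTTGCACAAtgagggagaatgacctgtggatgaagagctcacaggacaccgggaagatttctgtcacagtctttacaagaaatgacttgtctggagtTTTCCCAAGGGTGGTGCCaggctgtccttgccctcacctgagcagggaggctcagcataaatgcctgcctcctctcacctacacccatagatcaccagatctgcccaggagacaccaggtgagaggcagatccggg
The Saa3 window held 4 matches to the C/EBP motif, beginning at positions -216, -191, -129 and -99 from the start site, and none to the loose NF-kB motif. A match to this C/EBP motif was present in 40.7% of the 32851 mouse promoters of this length, and 4 or more matches in 1.16% of them. The threshold of 4 is the count of the Saa3 window itself, so the latter share is a description and no test. The Lcn2 window held 1 C/EBP match at -216, which reads TTGCTCAA along the gene, and 1 loose NF-kB match at -102, which reads GGACTACCCC. The Saa1 window held 2 C/EBP matches, at -182 and -86, and a loose NF-kB match at -78 that abuts the second of them. The loose NF-kB motif was present in 50.8% of promoters. None of the 3 windows held the stricter NF-kB motif GGGNNTTTCC (1.63% of promoters), the STAT motif TTCNNNGAA (8.30%), the AP-1 motif TGANTCA (7.81%), the NRF2 motif TGACNNNGC (12.4%) or the TATA motif TATAAA (13.6%), on either strand. A match describes letters in this window and does not show a site that is bound.

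The libraries held between 16534960 and 21179867 expected counts each, with 15329 to 15979 genes detected (1 count or more). Levels are CPM, counts divided by the library size as scaled with TMM and brought to a common size, unless a share of the library or TPM, which also divides by transcript length, is named. The expected counts of Saa3 and Lcn2 were whole numbers, within 0.005, in all 12 libraries, so no fractional share of reads with another gene was seen. Of 12 microglia and macrophage markers, 11 passed the filter on low counts, and their summed level was 2179 to 2810 CPM over all libraries. It was 2639 to 2648 CPM with LPS alone and 2179 to 2242 CPM in untreated cells. The markers did not move together. Adgre1 stood at 727 and 672 CPM with LPS alone and 466 and 420 CPM in untreated cells. Csf1r stood at 507 and 477 CPM against 321 and 377 CPM. Cd68 overlapped, at 732 and 797 CPM against 795 and 735 CPM. Trem2 was lower with LPS alone, at 43.8 and 36.3 CPM against 64.2 and 59.8 CPM. Of the 12 markers, Sall1 was at 0 in every library. Cx3cr1 and P2ry12, markers of resting brain microglia, averaged at most 0.902 and 0.588 CPM in any group. In bulk samples, a change in the share of cells that express a gene and a change in RNA per cell cannot be told apart.

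Saa3 was among the most abundant transcripts after LPS and was scarcer, though well detected, without it. With LPS alone its level was 13286 and 14080 CPM, against 550 and 429 CPM in untreated cells. The groups did not overlap, and the mean with LPS was 28.0-fold that of untreated cells, a log2 difference of 4.81 (SE 0.18). By TPM, Saa3 held rank 2 of all genes in both libraries with LPS alone, at 43013 and 46330 TPM, and ranks 94 and 98 in untreated cells, at 1753 and 1686 TPM. As a share of the whole library, Saa3 made up 1.298% and 1.396% of all expected counts with LPS alone, against 0.0541% and 0.0454% in untreated cells. Of the CPM gained over all genes that were higher with LPS than without, Saa3 alone accounted for 13.7%, the largest part of any gene when reads are counted.

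Lcn2 had a higher floor and a smaller span. With LPS alone its level was 2267 and 2142 CPM, against 840 and 529 CPM in untreated cells. The mean with LPS was 3.22-fold that of untreated cells, a log2 difference of 1.69 (SE 0.17), and the groups did not overlap. The untreated libraries stood further apart on the log2 scale for Lcn2 than the libraries of any other group did for either gene, so this difference was 2.06 without untreated library 1 and 1.42 without untreated library 2. Lcn2 made up 0.221% and 0.212% of the library with LPS alone, against 0.0827% and 0.0561% in untreated cells, and supplied 1.58% of the summed CPM gain.

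With 6-gingerol, both genes stayed near their level with LPS alone. Saa3 stood at 12629 and 12767 CPM with 6-gingerol at 10 µM, against 13286 and 14080 CPM with LPS alone. At 30 µM it stood at 11098 and 12276 CPM. By CPM both pairs lay just below the LPS pair without overlap, with log2 differences from LPS of -0.11 (SE 0.15) at 10 µM and -0.23 (SE 0.15) at 30 µM. Each difference was below 2 SE, and the first was smaller than its SE. Lcn2 stood at 2355 and 2118 CPM with 6-gingerol at 10 µM, a range that enclosed the 2267 and 2142 CPM of LPS alone, and its log2 difference was 0.02 (SE 0.17). At 30 µM it stood at 1754 and 2028 CPM, below both LPS libraries, with a log2 difference of -0.22 (SE 0.17). That value was -0.12 without the first and -0.33 without the second of the libraries with 6-gingerol at 30 µM.

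With 6-shogaol, both genes were lower at 10 µM and lower again at 30 µM. Saa3 stood at 8782 and 7100 CPM at 10 µM, against 13286 and 14080 CPM with LPS alone. At 30 µM it stood at 2740 and 2397 CPM. The mean was 1.72-fold lower at 10 µM and 5.33-fold lower at 30 µM than with LPS alone, log2 differences of -0.79 (SE 0.15) and -2.41 (SE 0.16), and no library of one group entered the range of another. Lcn2 stood at 1215 and 1232 CPM at 10 µM, against 2267 and 2142 CPM with LPS alone. At 30 µM it stood at 957 and 899 CPM. The mean was 1.80-fold lower at 10 µM and 2.38-fold lower at 30 µM, log2 differences of -0.85 (SE 0.17) and -1.25 (SE 0.17), again without overlap. For Saa3 the step between 10 and 30 µM was larger than the step between LPS alone and 10 µM on the log2 scale, and for Lcn2 it was smaller.

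**Figure D1:**
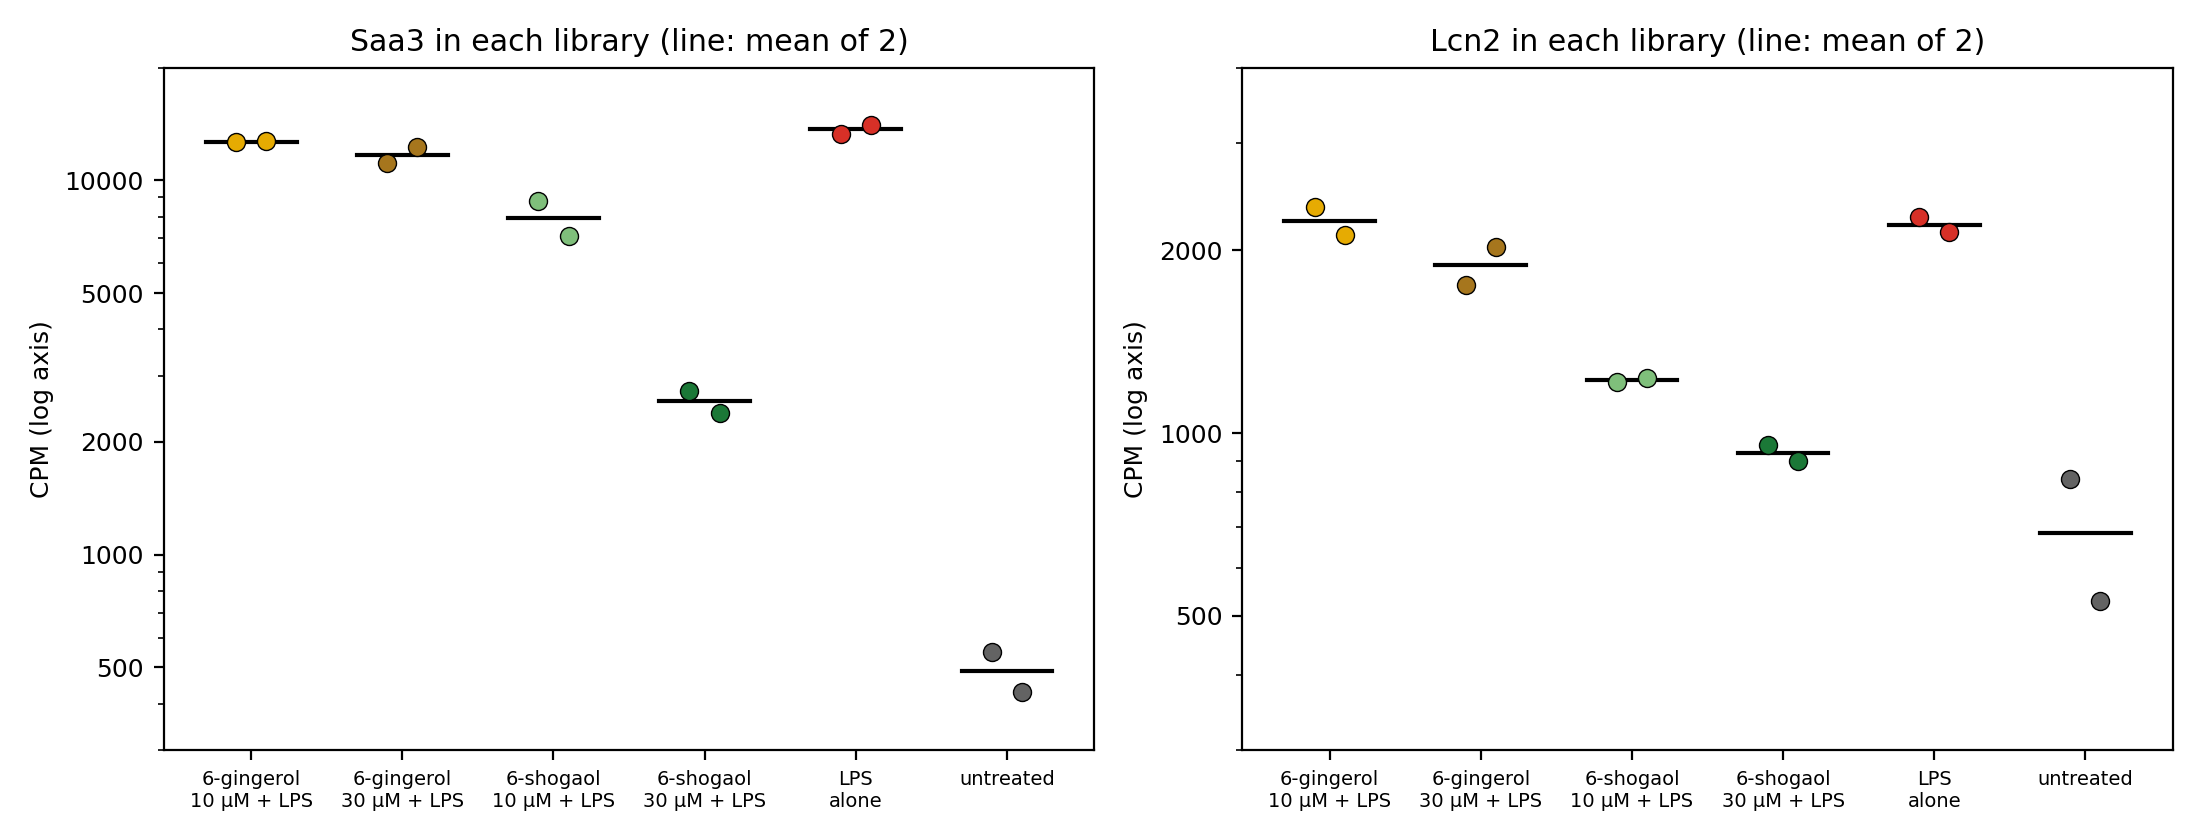
Levels of Saa3 (left) and Lcn2 (right) in CPM on a log axis, by group; each point is 1 library and the line is the mean of 2. The LPS libraries sit at 13286 and 14080 CPM for Saa3 and the untreated libraries at 550 and 429 CPM, with the 6-gingerol groups near LPS and the 6-shogaol groups stepping down between them.

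Set against each other at the same dose, the compounds differed for both genes. At 10 µM, Saa3 averaged 7941 ± 1190 CPM with 6-shogaol and 12698 ± 97.4 CPM with 6-gingerol, a log2 difference of -0.68 (SE 0.15). At 30 µM it averaged 2568 ± 242 CPM with 6-shogaol and 11687 ± 833 CPM with 6-gingerol, a log2 difference of -2.19 (SE 0.16; all values SD, n = 2 per group). For Lcn2 the log2 differences between 6-shogaol and 6-gingerol were -0.87 (SE 0.17) at 10 µM, from 1224 ± 11.6 and 2237 ± 167 CPM, and -1.03 (SE 0.17) at 30 µM, from 928 ± 40.7 and 1891 ± 194 CPM. In each of these 4 comparisons both 6-shogaol libraries lay below both 6-gingerol libraries. With 2 libraries a group such separation can arise by chance. How many of all genes separate is not given, here or where ranges are compared elsewhere.

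**Figure D2:**
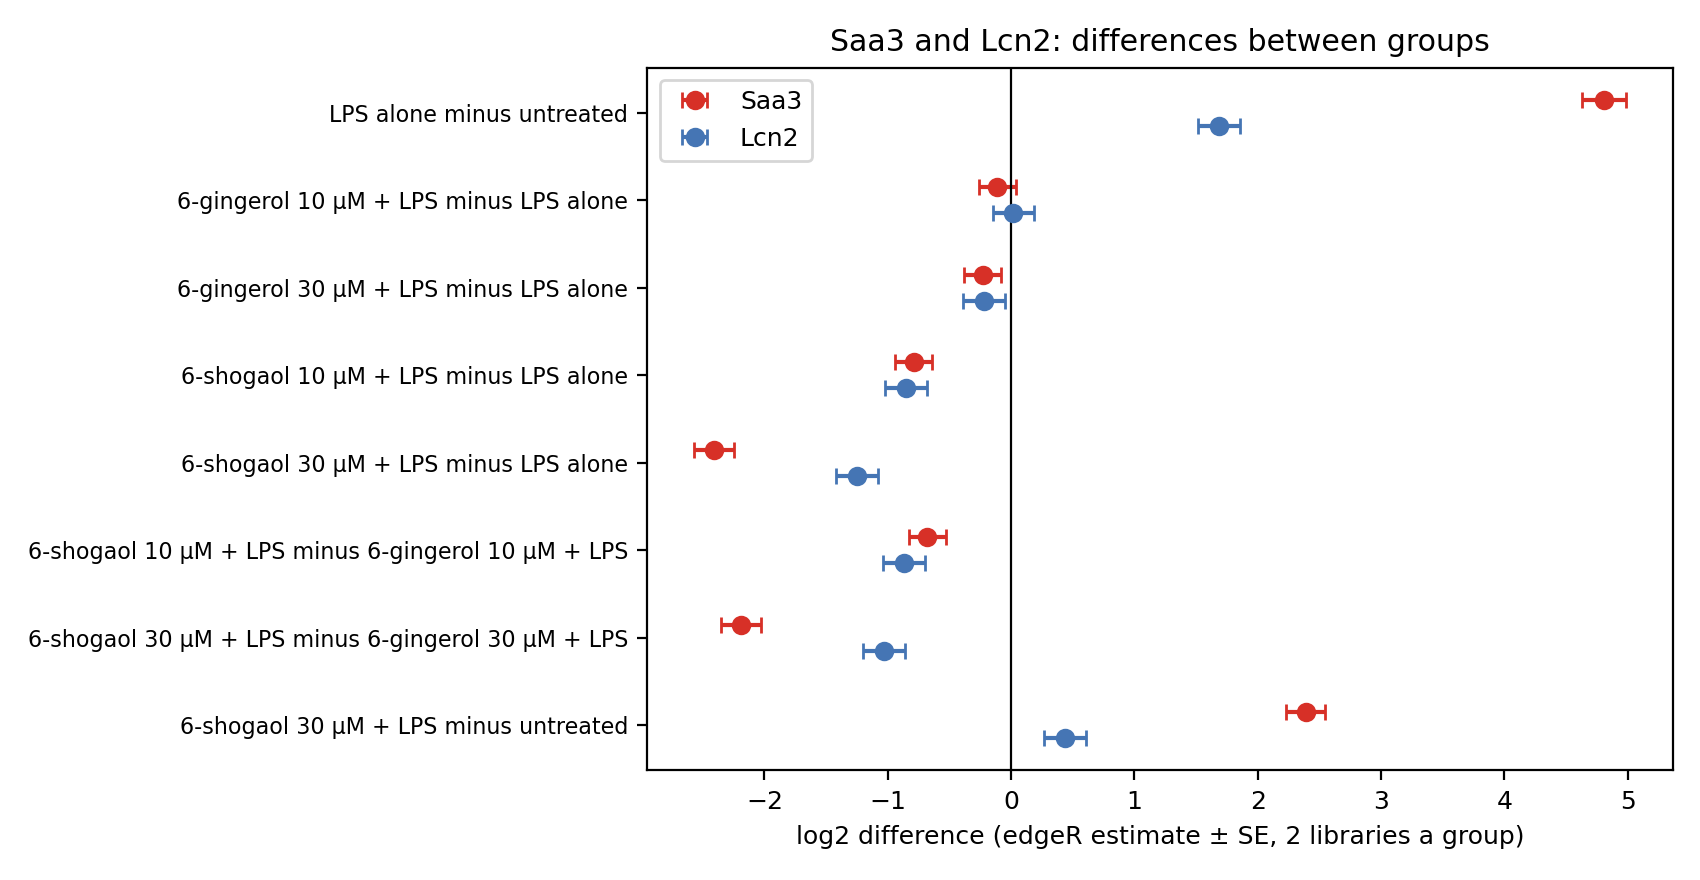
Differences of Saa3 (red) and Lcn2 (blue) between pairs of groups on the log2 scale, as edgeR estimates with bars of 1 SE and 2 libraries a group. Saa3 lies at 4.81 for LPS minus untreated and -2.41 for 6-shogaol at 30 µM minus LPS, against 1.69 and -1.25 for Lcn2, while the genes lie close together for 6-shogaol at 10 µM.

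From high to low, Saa3 ran from LPS alone through 6-gingerol at 10 µM, 6-gingerol at 30 µM, 6-shogaol at 10 µM and 6-shogaol at 30 µM to untreated cells, and by CPM no neighbouring groups in this order overlapped. The place of the 6-gingerol groups depended on the scale: for Saa3 they overlapped each other by TPM and as a share of the library, and the values with 6-gingerol at 10 µM in the authors' deposited table spanned those of LPS alone. For Lcn2, 6-gingerol at 10 µM and LPS alone overlapped at the top, and the rest of the order by CPM was that of Saa3; by TPM its 6-gingerol groups overlapped each other. With 6-shogaol at 30 µM, Saa3 was still 5.25-fold the level of untreated cells, a log2 difference of 2.39 (SE 0.16). Lcn2 was 1.36-fold the level of untreated cells, a log2 difference of 0.44 (SE 0.17), which was 0.81 without untreated library 1 and 0.17 without untreated library 2.

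The part of the LPS gain that each compound left in place depended on the scale. In CPM, where the gain is the LPS mean minus the untreated mean, Saa3 kept 92.5% of it with 6-gingerol at 10 µM, 84.9% with 6-gingerol at 30 µM, 56.5% with 6-shogaol at 10 µM and 15.8% with 6-shogaol at 30 µM. Lcn2 kept 102%, 79.4%, 35.5% and 16.0% in the same order. At the higher dose of 6-shogaol the single treated libraries ran from 14.5% to 17.1% for Saa3 and from 14.1% to 17.9% for Lcn2. The Lcn2 share rests on untreated libraries that stood apart: at 30 µM of 6-shogaol it was 23.8% without untreated library 1 and 6.46% without untreated library 2, where that of Saa3 was 16.1% and 15.4%, and at 10 µM the Lcn2 share was 41.5% and 28.1% (a calculation added after the values were seen). At 10 µM the libraries did not overlap, with 62.9% and 50.1% for Saa3 and 34.9% and 36.0% for Lcn2. On the log2 scale the picture was another: with 6-shogaol at 30 µM, Saa3 kept 49.8% and Lcn2 27.7% of the gain, and at 10 µM they kept 83.5% and 50.8%. For Lcn2 the log2 share at 30 µM was 39.4% without untreated library 1 and 10.3% without untreated library 2.

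**Figure D3:**
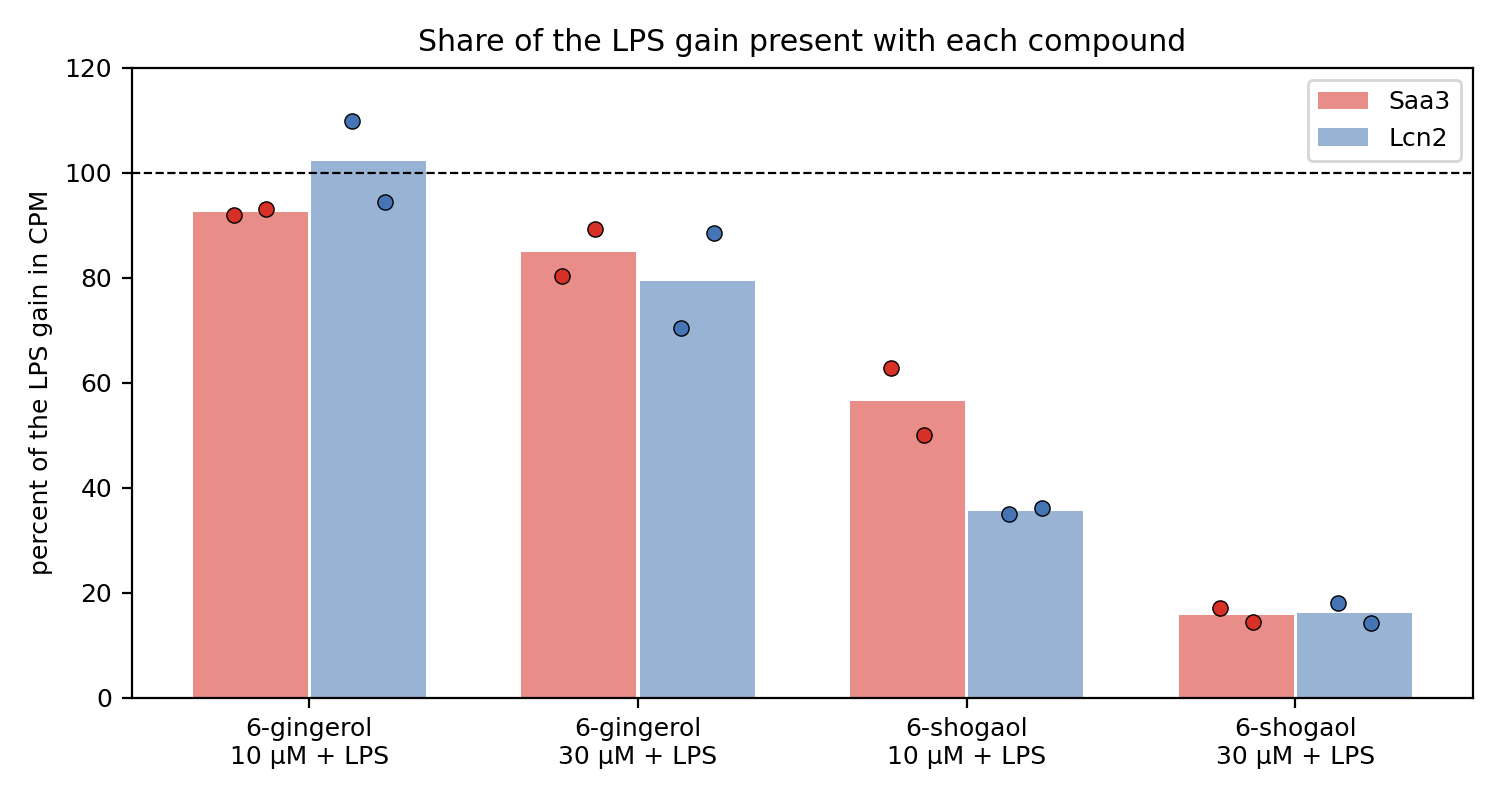
Percent of the LPS gain in CPM that was present with each compound; bars show the group mean, points the single libraries, and the dashed line the gain with LPS alone. Saa3 (red) and Lcn2 (blue) stand at 15.8% and 16.0% with 6-shogaol at 30 µM and at 56.5% and 35.5% with 6-shogaol at 10 µM; the points show the spread of the treated libraries only, and the Lcn2 share at 30 µM was 23.8% or 6.46% with 1 untreated library left out.

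The balance between the genes shifted with treatment. The ratio of Saa3 to Lcn2 in TPM was 12.8 and 13.9 with 6-gingerol at 10 µM, 15.1 and 13.7 with 6-gingerol at 30 µM, 17.1 and 13.7 with 6-shogaol at 10 µM, 6.63 and 6.28 with 6-shogaol at 30 µM, 13.6 and 14.9 with LPS alone, and 1.49 and 1.93 in untreated cells. The ratio thus set 6-shogaol at 30 µM between the other LPS groups and untreated cells, and the groups at its lower end did not overlap the rest. Together the genes took 0.366% and 0.324% of the library with 6-shogaol at 30 µM, 1.52% and 1.61% with LPS alone, and 0.137% and 0.102% in untreated cells. Of the CPM lost over all genes that were lower with 6-shogaol at 30 µM than with LPS alone, Saa3 accounted for 11.2% and Lcn2 for 1.29%. Saa3 again took the largest part of any gene, and at 10 µM of 6-shogaol it took 6.91%, also the largest.

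Almost all SAA transcript in these cells was Saa3, at between 99.968% and 100% of the summed counts of Saa1, Saa2, Saa3 and Saa4 in every library. Its relatives on chromosome 7 were barely expressed. Saa1 (46740497 to 46742980) had 46 and 53 counts with LPS alone and 0 in untreated cells. That is at least 34.7-fold higher against a floor of 3 counts over the untreated group, and it passed the edgeR quasi-likelihood test (Benjamini-Hochberg adjusted p = 1.14e-06). With 0 counts in untreated cells, Saa1 and Saa2 passed the filter on low counts only through libraries with LPS. Their tests against untreated cells therefore add little to the counts. The same holds for their tests with 6-shogaol at 30 µM, where neither had more than 3 counts in a library. With 6-shogaol Saa1 had 21 and 26 counts at 10 µM, a difference from LPS that was not called (adjusted p = 0.162, edgeR), and 1 and 3 counts at 30 µM. The difference at 10 µM was called where only the compared groups were fitted (adjusted p = 0.0284, edgeR). At 30 µM Saa1 was 22.5-fold lower than with LPS alone (adjusted p = 9.74e-06, edgeR), though on 4 counts in all. Saa2 (46751790 to 46754313) had 9 and 15 counts with LPS alone and 0 in untreated cells, at least 8.41-fold higher (adjusted p = 0.00061, edgeR). With 6-shogaol at 30 µM it had 2 and 2 counts (adjusted p = 0.0119, edgeR), a call lost without LPS library 2 (adjusted p = 0.0955), without either library with 6-shogaol at 30 µM (adjusted p = 0.0673 and 0.0819), and in DESeq2 (adjusted p = 0.0689). Saa4 had at most 7 counts in a library and did not pass the filter. Saa1 and Saa2 are near-identical in sequence, so the split between them is uncertain. Their expected counts were nonetheless whole numbers, within 0.005, in all 12 libraries, so no fractional share of reads was seen.

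Beside the SAA relatives, the called genes on either side of Saa3 and Lcn2 had log2 fold changes of at most 0.64 in size. Among the 4 nearest genes passing the filter on each side of Saa3, Saa1 and Saa2 rose with LPS, Abcc8 and Saal1 fell, and Nomo1, Sergef, Hps5 and Gtf2h1 were not called (edgeR, adjusted p under 0.05). By annotated start they lay from 25.9 kb (Saal1) to 678 kb (Nomo1) from Saa3, with Abcc8 at 607 kb. The genes taken around Lcn2 lay from 7.54 to 151 kb from it. Over all genes, 11.8% were called with LPS and 25.4% with 6-shogaol at 30 µM against LPS. Saal1, which lies next to Saa3, averaged 17.3 ± 1.38 CPM with LPS alone and 23.7 ± 1.96 CPM in untreated cells (SD, n = 2), a log2 fold change of -0.46 (adjusted p = 0.0195, edgeR). With 6-shogaol at 30 µM it stood at 25.6 ± 0.126 CPM and so was higher than with LPS alone (0.56, adjusted p = 0.00293, edgeR), the opposite of Saa3 in both comparisons. Gtf2h1, which encodes a subunit of the transcription factor TFIIH, averaged 120 ± 10.8 CPM with 6-shogaol at 30 µM and 158 ± 3.20 CPM with LPS alone and so was lower (-0.40, adjusted p = 0.0119, edgeR). Around Lcn2, Slc25a25, a mitochondrial carrier gene, moved in the directions of Lcn2. It averaged 29.4 ± 0.901 CPM with LPS alone and 19.2 ± 0.0521 CPM in untreated cells (0.62, adjusted p = 0.00255, edgeR), and 18.9 ± 2.77 CPM with 6-shogaol at 30 µM (-0.64 from LPS, adjusted p = 0.00132, edgeR). Fam102a moved the opposite way, with log2 fold changes of -0.51 and 0.61 (adjusted p = 0.047 and 0.0116, edgeR), and 1110008P14Rik was higher in both (0.40 and 0.35, adjusted p = 0.041 and 0.0439, edgeR). Golga2, Dnm1, Ciz1, Ptges2 and Naif1 were called in neither. The calls of Abcc8, Saal1, 1110008P14Rik, Fam102a and Gtf2h1 were each lost under at least 1 of the alternatives tried, and those of Slc25a25 under none.

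**Figure D4:**
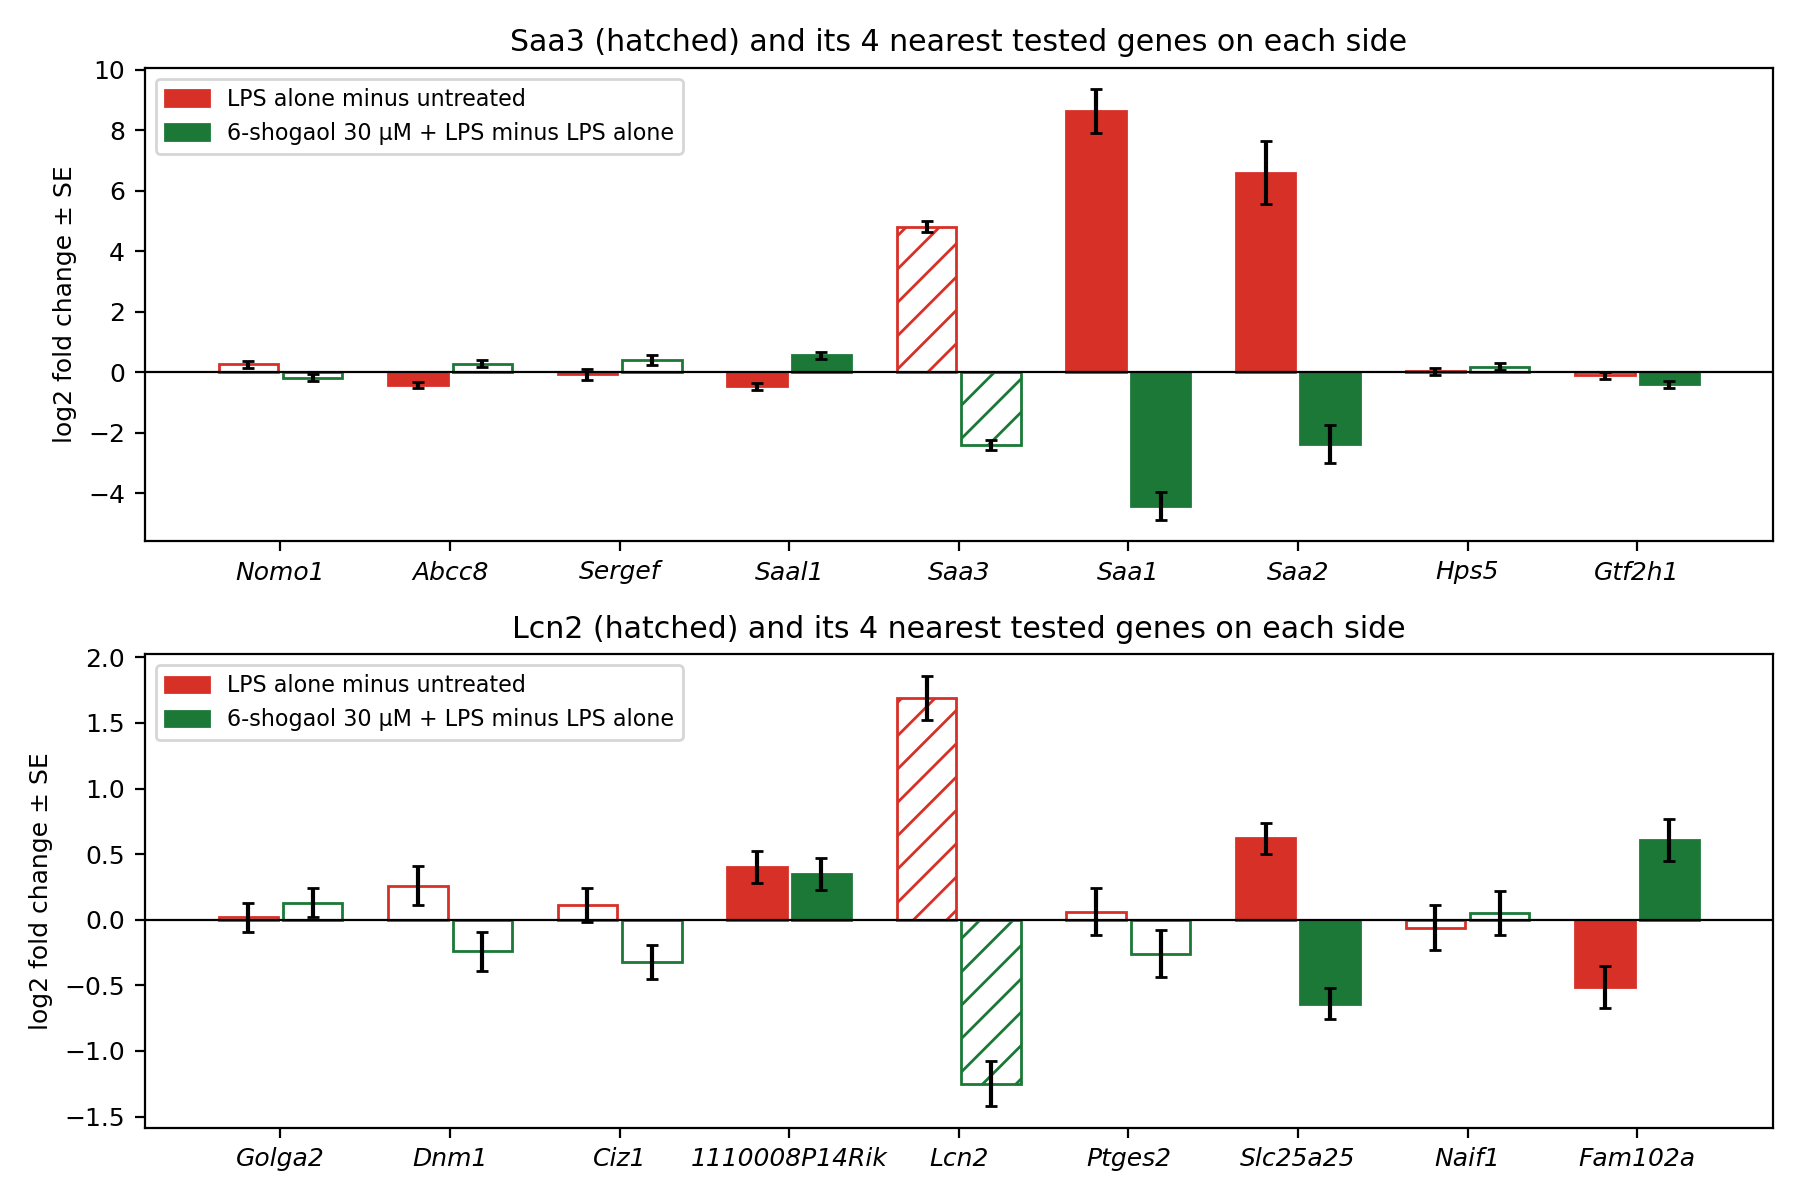
Log2 fold changes with SE for Saa3 and Lcn2 (hatched, not tested) and the 4 nearest tested genes on each side in chromosomal order, for LPS minus untreated (red) and 6-shogaol at 30 µM plus LPS minus LPS (green); filled bars were called at an edgeR adjusted p under 0.05. Outside the SAA genes no neighbour of Saa3 passes 0.56 in size; the red bars of Saa1 and Saa2 rest on 0 counts in untreated cells, so their height is set by the fit and is not a bound.

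Around these genes stand lists of 92 other genes: SAA relatives, further acute-phase genes, the cytokines that induce the acute phase, transcriptional regulators, SAA receptors, partners of lipocalin 2 with iron handling, and other lipocalins. Of the 92, 60 passed the filter, and of the 9 other lipocalins none did. With LPS, 26 of the 60 were higher and 5 lower than in untreated cells, Saa1 and Saa2 among the higher. Of all 12705 genes, 11.8% were called in either direction (7.66% higher and 4.16% lower). The lists were chosen with earlier results of these data known. Shares of all genes, here and in the comparisons below, are therefore given as description and are no test of the lists. The median log2 fold change of the 60 was 0.34, also with Saa1 and Saa2 at their lower bound, beside -0.03 for all genes.

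Among the inducers, Il6, the cytokine that drives the hepatic acute phase, was at 212 and 194 CPM with LPS alone and at 9.75 and 6.33 CPM in untreated cells (log2 fold change 4.66, adjusted p = 1.04e-10, edgeR). Tnf (3.22) and Il1a (2.36) rose as well, and the receptor gene Il6ra fell (-0.85); these were the 4 called of 11 tested. Of 15 regulators, 7 rose and 2 fell. Nfkbiz, whose product IkBζ is needed for Lcn2 induction, was at 125 and 136 CPM with LPS alone and at 70.7 and 69.3 CPM in untreated cells (0.90, adjusted p = 3.89e-06, edgeR). Nfkbia (1.61), the feedback inhibitor of NF-kB, and Socs3 (1.33), which restrains STAT3 signalling, rose. Of the C/EBP genes none was called higher: Cebpd (-0.69) and Cebpa (-0.66) fell, and Cebpb, at 168 ± 8.41 CPM with LPS alone and 132 ± 25.6 CPM in untreated cells, was not called (0.35, adjusted p = 0.215, edgeR). Zc3h12a, which encodes an endonuclease that degrades inflammatory mRNAs, was not called either (0.30, adjusted p = 0.204).

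Of 10 acute-phase genes tested, 7 rose with LPS and 1 fell. Cfb, complement factor B, was at 261 and 267 CPM with LPS alone and at 0.308 and 0.233 CPM in untreated cells, a log2 fold change of 9.91 (adjusted p = 4.53e-15, edgeR). Hp, which encodes the haemoglobin scavenger haptoglobin, was at 1084 and 985 CPM with LPS alone and at 87.6 and 98.4 CPM in untreated cells (3.48, adjusted p = 7.06e-10, edgeR). Il1rn (2.59), the interleukin 1 receptor antagonist, rose, and Lbp (-0.56), the LPS-binding protein, fell. Of 9 receptor genes, Tlr2 (0.95), Fpr1 (1.66) and Fpr2 (3.89) rose, Fpr2 to 1.54 ± 0.117 CPM only, and Cd36 (-0.79) fell. Of 13 tested partners and iron genes, Mmp9, whose protease forms a complex with lipocalin 2, rose (3.09), as did Hmox1 (1.20), haem oxygenase 1, the iron exporter gene Slc40a1 (0.68) and the ferritin gene Fth1 (0.50). Slc22a17, a proposed lipocalin 2 receptor, did not pass the filter and stayed at or below 0.103 CPM in all 12 libraries. Fth1 and Ftl1 have processed copies that can share their reads. With 1 of the 4 LPS and untreated libraries left out, the calls of Lbp, Il6ra, Bcl3, Cebpa, Cebpd, Cd36, Slc40a1 and Fth1 were each lost at least once (highest adjusted p 0.416, edgeR, neighbouring genes included).

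With 6-gingerol, none of the 60 genes was called against LPS at either dose, beside 0% of all genes. At an unadjusted p under 0.05 (edgeR) there were 0 at 10 µM and 6 at 30 µM. No share of all genes is given at that threshold or for DESeq2, as the 0% rests on edgeR adjusted p-values. By DESeq2 the counts were 0 and 1, the called gene being Il6. That gene stood at 101 and 118 CPM with 6-gingerol at 30 µM, against 212 and 194 CPM with LPS alone (log2 fold change -0.89; adjusted p = 0.379 in edgeR and 6.58e-05 in DESeq2).

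With 6-shogaol at 10 µM, 5 of the 60 genes were lower and none higher than with LPS alone, beside 0.638% of all genes called in either direction (0.575% lower and 0.063% higher). They were Il6 at 29.2 ± 5.20 CPM, against 203 ± 13.1 CPM with LPS alone (-2.80, adjusted p = 2.05e-07, edgeR), Cfb (-1.65), Il1rn (-1.29), Cd14 (-0.78) and Tnf (-0.68). The count was 3 without the first library with 6-shogaol at 10 µM, where Cd14 and Tnf were lost, and 15 where only the compared groups were fitted. The Cd14 call was also lost without LPS library 2 (adjusted p = 0.0604, edgeR) and without the second library with 6-shogaol at 10 µM (adjusted p = 0.128, edgeR). The share of all genes called is given for the main fit only, so whether the lists stood out under these alternatives is not known. The acute-phase gene Hp was not called at this dose (0.16, SE 0.15, adjusted p = 0.719, edgeR). It stood at 1256 and 1049 CPM with 6-shogaol, against 1084 and 985 CPM with LPS alone. These ranges overlapped, where those of Saa3 and Lcn2 did not. Nfkbiz, at 105 and 108 CPM against 125 and 136 CPM with LPS alone, was not called (-0.29, adjusted p = 0.219, edgeR). Where only the compared groups were fitted, Nfkbiz was called lower (-0.29, adjusted p = 0.0203, edgeR). Against 6-gingerol at the same dose the same 5 genes were lower and none higher, again beside 0.638% of all genes (0.559% lower and 0.0787% higher). The Cd14 call was lost there without the first library with 6-gingerol at 10 µM (adjusted p = 0.24, edgeR) and without either library with 6-shogaol at 10 µM (adjusted p = 0.151 and 0.287, edgeR), and without the filter on low counts 9 genes were called.

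With 6-shogaol at 30 µM, 30 of the 60 genes were lower and 9 higher than with LPS alone, beside 25.4% of all genes called in either direction (12.8% lower and 12.6% higher). Saa1 and Saa2 were among the lower, here and against 6-gingerol at that dose. They passed the filter on low counts only through other groups with LPS. Il6 fell to 3.52 ± 0.836 CPM, against 203 ± 13.1 CPM with LPS alone, a log2 fold change of -5.84 (adjusted p = 1.28e-10, edgeR). Of the 11 inducers 6 fell, Tnf (-1.88), Osm (-1.42) and Il1r1 (-1.37) among them, and Tnfrsf1a rose (0.33). Among acute-phase genes 7 of 10 fell and 1 rose. Cfb (-5.14) fell to 7.63 and 7.33 CPM, against 261 and 267 CPM with LPS alone, and Il1rn (-2.90) and Cp (-0.94), the copper oxidase ceruloplasmin, fell too. Hp was lower at this dose, at 638 and 485 CPM, against 1084 and 985 CPM with LPS alone (-0.88, adjusted p = 0.000604, edgeR), and Lbp was higher (0.50).

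The regulators split in the same direction at 30 µM, with 8 lower and 1 higher of 15. Nfkbiz was at 64.2 and 62.8 CPM, against 125 and 136 CPM with LPS alone (-1.04, adjusted p = 1.16e-06, edgeR). Socs3 (-0.98), Nfkb2 (-0.88), Bcl3 (-0.75) and Cebpd (-0.57) fell, while Cebpa (0.53) rose. Cebpb averaged 122 ± 36.6 CPM with 6-shogaol at 30 µM and 168 ± 8.41 CPM with LPS alone and was not called (-0.46, adjusted p = 0.0583, edgeR), nor was Zc3h12a (-0.07, adjusted p = 0.753). Among the 9 receptor genes 5 fell, Fpr1 (-1.76), Fpr2 (-1.71), the LPS co-receptor gene Cd14 (-1.42) and Tlr2 (-0.48) among them, and the scavenger receptor genes Cd36 (0.73) and Scarb1 (0.36) rose. Of the 13 partners and iron genes, Ftl1 (0.76), Slc40a1 (0.72), Slc11a1 (0.63) and Aco1 (0.46) rose, and Mmp9 (-0.96) and Slc39a14 (-0.43) fell. The direction of the first 4 was opposite to that of Lcn2. With 1 of these 4 libraries left out, the calls of Lbp, Tnfrsf1a, Bcl3, Cebpa, Cebpd, Tlr2, Fpr2, Scarb1, Cd36, Slc40a1, Slc39a14 and Aco1 were each lost at least once (highest adjusted p 0.331, edgeR, neighbouring genes included). Against 6-gingerol at 30 µM, 29 genes were lower and 7 higher, beside 25% of all genes (12.4% lower and 12.5% higher), with Nfkbiz at -0.86, Hp at -0.92 and Il6 at -4.95 on the log2 scale. In this comparison Cebpb was called lower, while Cebpa and Cebpd were not called. The Cebpb call was lost in 3 of 10 alternatives, each with 1 library left out, at log2 fold changes of -0.48, -0.59 and -0.26.

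**Figure D5:**
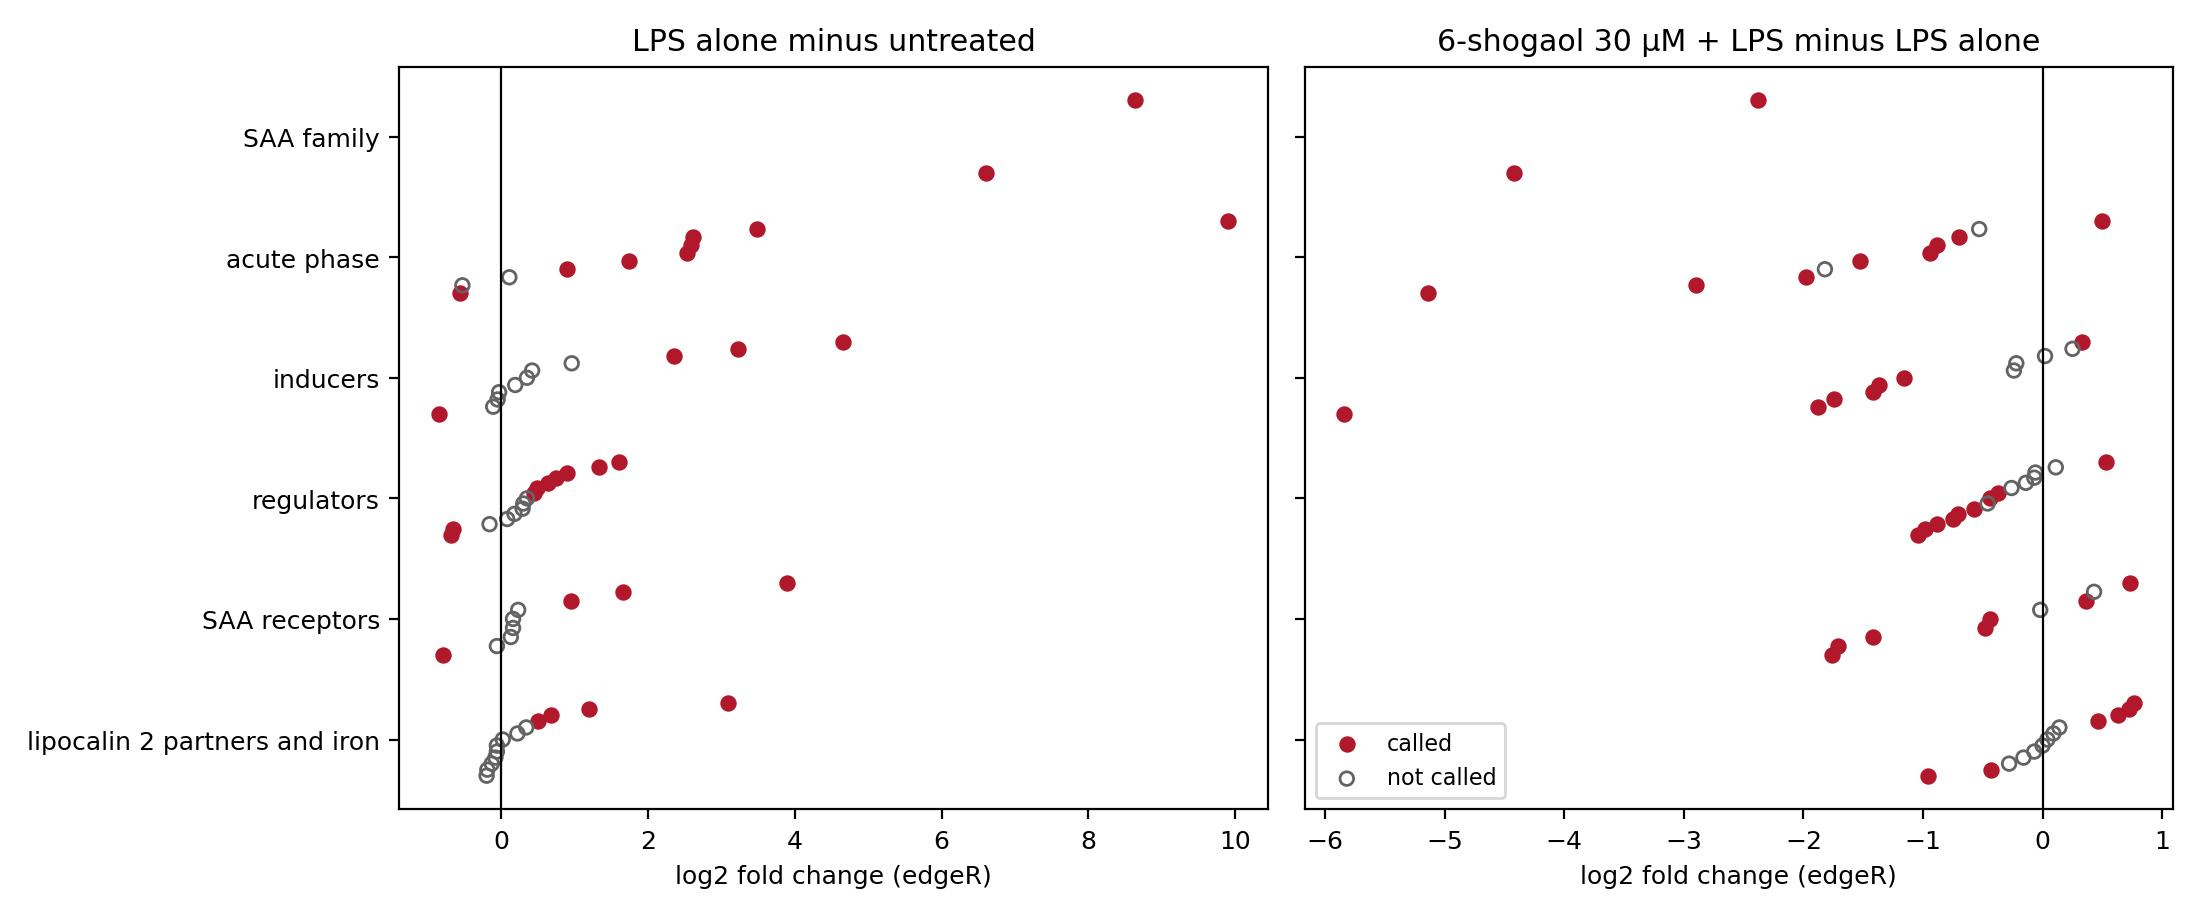
Log2 fold changes (edgeR) of the 60 tested genes around Saa3 and Lcn2 by list, for LPS minus untreated (left) and 6-shogaol at 30 µM plus LPS minus LPS (right), with called genes filled; vertical position within a list only spreads the points. On the left 26 genes were called higher and 5 lower, on the right 9 higher and 30 lower. The points of Saa1 and Saa2 on the left rest on 0 counts in untreated cells. On the right they rest on at most 3 counts a library with 6-shogaol at 30 µM.

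Genes whose levels ran most like those of Saa3 and Lcn2 were found by Pearson's r of log2(CPM + 1) over the 12 libraries, which share the 6 groups, among genes averaging 5 CPM or more whose group means spanned at least 2 on that scale. For Saa3, of 65 such genes, the closest were Ptges (r = 0.9956), which encodes an inducible prostaglandin E synthase, Gm43302 (0.9943), Tnf (0.9918), the chemokine gene Ccl5 (0.9911), Zfp811 (0.9909) and Adhfe1 (0.989). Ptges averaged 28.2, 27.2, 19.2 and 9.49 CPM with 6-gingerol at 10 and 30 µM and 6-shogaol at 10 and 30 µM, 31.1 CPM with LPS alone and 3.05 CPM in untreated cells. For Lcn2, of 66 such genes, they were the interferon-inducible Ifi211 (0.9819), the chemokine gene Ccl3 (0.975), Gm13571 (0.9711), Gbp3 (0.9674), the chemokine gene Ccl4 (0.9668) and Clec4e (0.9661), a receptor of macrophages for microbial glycolipids. Ifi211 averaged 9.70, 8.70, 4.64 and 1.90 CPM in the compound groups in that order, 11.4 CPM with LPS alone and 0.725 CPM in untreated cells. Saa3 and Lcn2 were less like each other, at r = 0.9232, which placed Saa3 at rank 28 for Lcn2. Lcn2 itself spanned less than 2, and at rank 40 it would stand well down the list for Saa3.

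Markers of neutrophils and hepatocytes, which also make acute-phase proteins, were near 0. Of 10 neutrophil granule markers, 4 passed the filter, and S100a9, Mpo and Ly6g were at 0 in every library. Their summed level was 4.00 to 4.15 CPM with 6-shogaol at 30 µM, 5.33 to 6.18 CPM with LPS alone and 4.26 to 4.70 CPM in untreated cells. The 4 did not move together. Camp stood at 0.550 and 0.394 CPM with 6-shogaol at 30 µM, 1.94 and 1.90 CPM with LPS alone and 0.308 and 0.326 CPM in untreated cells. Mmp8 ran the other way between the last 2 groups, at 0.244 and 0.169 CPM with 6-shogaol at 30 µM, 0.424 and 0.143 CPM with LPS alone and 1.08 and 1.02 CPM in untreated cells. S100a8 lay between 1.40 and 3.03 CPM and Prtn3 between 0.274 and 1.19 CPM over all libraries. Of 8 hepatocyte markers 1 passed the filter, and the sum stayed between 0.550 and 2.08 CPM in all libraries. Of 8 astrocyte markers, Gja1 and Aldoc passed and Aqp4 and Slc1a3 were at 0. Their sum was 93.2 to 108 CPM with 6-shogaol at 30 µM, 80.5 to 82.0 CPM with LPS alone and 65.3 to 74.0 CPM in untreated cells, most of it Aldoc. Gja1 alone, the connexin 43 gene, stood at 10.2 and 8.62 CPM with 6-shogaol at 30 µM, 16.7 and 15.7 CPM with LPS alone and 6.06 and 6.05 CPM in untreated cells, highest with LPS alone and lowest in untreated cells, as Saa3 was in those 3 groups. Aldoc ran otherwise. It stood at 97.9 and 84.5 CPM with 6-shogaol at 30 µM. With LPS alone it stood at 63.5 and 66.2 CPM, within the 59.1 and 67.8 CPM of untreated cells. The part of the neutrophil, hepatocyte and astrocyte markers in the levels of Saa3 and Lcn2 was not tested.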

How the data were processed

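RNA was sequenced from 12 BV2 libraries (TruSeq stranded mRNA, paired-end, per the labels' protocols). Of tools, the submitters' processing notes list STAR 2.7.11b and RSEM 1.3.3 among others, with the build GRCm38 (mm10) and no role for each. The tables deposited for each library give, per the file headers, an RSEM expected count, a TPM, and transcript length and effective length in bases for each gene; 7.03% of the expected counts were not whole. A further deposited table holds a normalized signal made by the authors, whose method is not given in the sources used here; it was used only as an alternative. Symbols came from a table of gene names (97.8% of identifiers matched), positions from GENCODE M21 and promoters from RefSeq.

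Expected counts were rounded. edgeR 4.0.16 in R 4.3.3 (filterByExpr, minimum count 10; TMM factors 0.94 to 1.06; robust quasi-likelihood F test, 2-sided) was fitted to all 12 libraries with 6 group means, which left 6 residual degrees of freedom. It tested 12705 genes, and a gene counted as called where its Benjamini-Hochberg adjusted p, over all of them, was below 0.05. Log2 differences of Saa3 and Lcn2 are from the same fit, without p-values. Depth was 16534960 to 21179867 counts a library, so counting error is small for both genes. With 2 libraries a group, intervals rest on the spread shared over groups.

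Saa3, Lcn2 and the gene lists were chosen with earlier results of these data known. Genes were named by rule: in each comparison and list, up to 4 called genes a direction with the largest change among those averaging 5 CPM or more in either group, always Saa1, Saa2, Saa4, Hp, Il6, Nfkbiz, Cebpb, Cebpd, Zc3h12a, Tlr2, Fpr2, Slc22a17 and Mmp9, the 4 nearest tested genes on each side, and the 6 genes most like each by correlation. A gene that the rule also named is not reported here. Camp, Cx3cr1, P2ry12 and other single markers were chosen after their values were seen. Alternatives were DESeq2 1.42.0, other scalings, no filter, the compared groups alone, a replicate block, each library left out, the deposited TPM and the authors' table; the share of the LPS gain without single untreated and LPS libraries was added after the values were seen.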

Additional observations from a re-analysis of the deposited data

How the results depend on the processing

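Under the alternatives run, no called gene was reversed, and the log2 differences of Saa3 and Lcn2 kept their sign, except that Lcn2 with 6-gingerol at 10 µM against LPS was -0.02 on library totals and -0.03 from the deposited TPM, and ran from -0.06 to 0.10 as single libraries were left out. From the authors' table, Saa3 with 6-gingerol at 10 µM against LPS was -0.02. Lcn2 with 6-shogaol at 10 µM was -0.78 against LPS on library totals and -0.70 from the deposited TPM, and -0.76 and -0.67 against 6-gingerol at that dose. From the TPM, Lcn2 with 6-shogaol at 30 µM against LPS was -1.14. The library totals shifted the median of all genes by 0.111 for 6-shogaol against 6-gingerol at 10 µM. Genes of the lists called for 6-gingerol at 30 µM against LPS numbered 1, in place of 0, without the count filter, with DESeq2 and with the compared groups alone. For 6-shogaol at 10 µM they numbered 15 against LPS with the compared groups alone, and 9 against 6-gingerol without the filter, in place of 5 each. The share of all genes called in these settings is not given, and the cause of these shifts was not tested.

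With each library left out in turn, the count for 6-shogaol at 10 µM against LPS ran from 3 to 5. Of 106 named calls, 68 held in every alternative. Replicate numbers did not pair the libraries: deviations of same-numbered libraries correlated at -0.312 to 0.178 over 15 pairs of groups, 5 of them over 0.1. With the replicate block the lists had 31 calls for LPS against untreated and 38 for 6-shogaol at 30 µM against LPS, beside 31 and 39. It moved no difference of Saa3 or Lcn2 by more than 0.01, and 2 named calls were lost, Cebpa for 6-shogaol at 30 µM and Fam102a for LPS. Both genes had 9212 counts or more in every library, so the 2 libraries a group, not depth, limit their precision.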
